A study of Mus musculus with 27 samples.

Results

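Haploid spermatids of the mouse line Strep2, in which the PIWI protein MIWI carries a Strep tag, were compared with spermatids of wild type (WT) mice by long RNA sequencing. The 6 libraries, 3 of each genotype, were taken by the genotype and cell labels from the 27 samples of the series. The series also holds long RNA from a further tagged line, Strep1, and from 4n spermatocytes of all genotypes, small RNA bound to the purified protein and RNA cut by that protein in a test tube. Each group had 3 libraries. The 1n WT cells carry untagged MIWI. The 1n Strep2 cells come from a knock-in line labelled Strep2 (RP85), whose MIWI has the Strep II tag inside its N-terminal region. The protocol speaks of a pair of lines, RP85 and RP86, with different insertion sites, while the Strep1 label names RP68, so the insertion site of Strep2 could not be told from the labels. For the sorted cells they give no age, zygosity or strain. Nothing in them ties a library to its own animal, so each p-value weighs a difference against library-to-library spread that may be technical only. All 6 libraries belong to the library series XI-112 by their names. RNA came from about 500000 sorted cells per sample, and 100 ng of total RNA entered a stranded, rRNA-depleted library preparation.

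MIWI, the product of Piwil1, is loaded with pachytene piRNAs, small RNAs that arise in spermatocytes from long precursor transcripts. With them it can cleave complementary transcripts, and in spermatids it is found in the chromatoid body, a cytoplasmic granule rich in RNA. Mouse spermatids need MIWI to pass the round stage.

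The values are RPM, reads scaled to a common library total that the sources used here do not define. The value of 1 read put the depth of the 6 libraries at 34.4 M to 57.7 M reads. Pearson correlations across genes between libraries were 0.9885 to 0.994 within WT, 0.9929 to 0.9955 within Strep2 and 0.9897 to 0.9939 between the genotypes, and genes are not independent replicates. The label of the cells was checked by marker genes. Prm1, a protamine of the sperm nucleus, stood at 1257, 2152 and 1086 RPM in the 1n WT libraries and at 869.8, 1375 and 1282 RPM in 1n Strep2, against 25.7 to 34.2 RPM in 4n WT cells. H1f6, a testis linker histone, stood at 3.59 to 5.32 RPM in 1n WT and 3.50 to 4.15 RPM in 1n Strep2, against 268.5 to 334.5 RPM in 4n WT. Not every spermatocyte marker set the populations apart. Mean Sycp1 was 42.9 RPM in 1n WT, 42.4 in 1n Strep2 and 47.5 in 4n WT, and mean Hspa2 was 1054, 1152 and 1150 RPM. Ccl28, Map3k1 and Tmed6, which were chosen with earlier results known, are results of the comparison and no check of the cell type. Piwil1 itself stood at 40.5, 27.5 and 39.4 RPM in WT and at 31.8, 31.2 and 35.6 RPM in Strep2. The Piwil1 groups overlapped, at -0.12 ± 0.13 on the log2 scale (SE, Strep2 minus WT; limma adjusted p = 0.801). These reads do not show the tag, so the Piwil1 level does not check the genotype.

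Strep2 and WT spermatids differed in few genes. Of 20988 genes tested with limma, 21 passed an adjusted p of 0.05 (0.1%), 9 of them higher in Strep2 (0.0429%) and 12 lower (0.0572%). A fold change here is on the log2(RPM + 0.1) scale, Strep2 over WT, and understates the change of low genes. By annotation 11 of the 21 code for proteins, 6 are long non-coding RNAs and 4 are pseudogenes. In 15 of the 21 a group mean reached 1 RPM. A further 3, A630023P12Rik, Gm4785 and Gm15457, passed the filter on low values only through the Strep2 libraries, so their call depends on the group where they are high. All WT and Strep2 libraries stood apart in 2382 genes higher in Strep2 (11.3%) and 988 lower (4.71%). Fewer genes were called when WT replicate 1 was dropped (13), when Strep2 replicate 1 (12), 2 (11) or 3 (10) was dropped, and with no filter on low values (13).

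Of the 21 genes, 8 lay on distal chromosome 13, 4 on chromosome 5, 4 on proximal chromosome 1 and 2 on the Y chromosome, with 1 each on chromosomes 8, 10 and 12. Positions are those of GRCm39, the build in the submitters' processing notes, in the GENCODE vM39 annotation. The 8 genes of chromosome 13 lie between positions 111882962 and 120170470, a stretch of 8.288 Mb. Between its outermost called genes 47 genes were tested, of which 17% were called, against 0.915% of the 874 tested on the whole chromosome. The stretch was set by the called genes themselves, so these shares are a description.

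**Figure D1:**
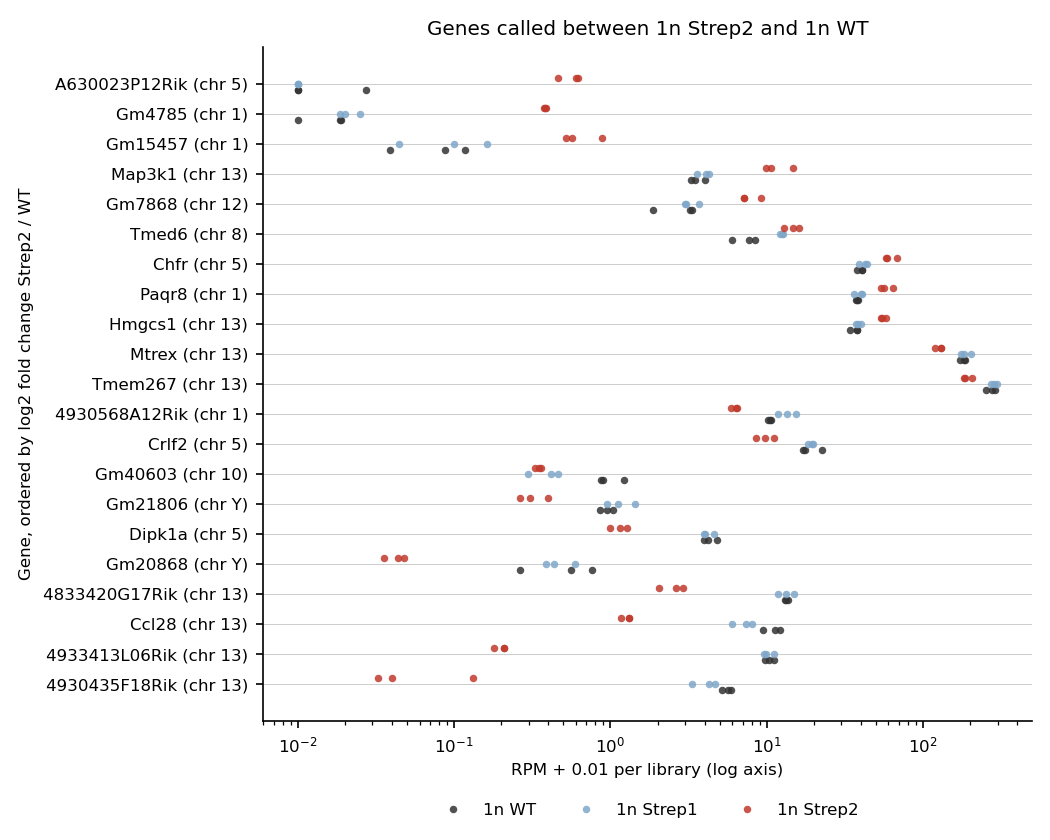
RPM + 0.01 in each 1n library (log axis) for the 21 genes called between Strep2 and WT, ordered by fold change, with WT in black, Strep1 in blue and Strep2 in red. The Strep2 points stand clear of the WT points for all 21 genes, from 4930435F18Rik (5.20 to 5.91 RPM in WT, at most 0.122 in Strep2) to A630023P12Rik (at most 0.0173 RPM in WT, 0.455 to 0.606 in Strep2).

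Of the chromosome 13 genes 5 changed at least 2-fold, and the 250 bases before their annotated starts are shown because among the called genes of that chromosome these changed most, and they move in both directions. Sequences are read from the GRCm39 genome, 5′ to 3′ on the strand of the gene. Capitals mark matches to GTTGCC, the half-site of the X-box motif of RFX factors, on either strand.
4930435F18Rik (chr13:116974715-116974964, minus strand): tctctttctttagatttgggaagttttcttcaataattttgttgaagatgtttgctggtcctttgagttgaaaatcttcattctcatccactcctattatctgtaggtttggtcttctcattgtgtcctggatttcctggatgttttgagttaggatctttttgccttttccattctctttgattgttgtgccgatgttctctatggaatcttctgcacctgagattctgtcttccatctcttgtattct
4933413L06Rik (chr13:117856548-117856797, minus strand): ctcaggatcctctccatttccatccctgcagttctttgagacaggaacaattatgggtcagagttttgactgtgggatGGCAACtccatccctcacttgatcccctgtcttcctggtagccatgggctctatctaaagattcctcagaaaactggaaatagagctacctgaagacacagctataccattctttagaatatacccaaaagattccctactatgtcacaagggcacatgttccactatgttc
Ccl28 (chr13:120085105-120085354, plus strand): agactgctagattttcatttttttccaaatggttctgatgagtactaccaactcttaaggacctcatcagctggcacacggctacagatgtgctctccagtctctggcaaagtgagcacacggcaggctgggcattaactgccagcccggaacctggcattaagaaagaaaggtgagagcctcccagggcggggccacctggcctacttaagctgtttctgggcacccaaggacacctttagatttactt
4833420G17Rik (chr13:119599017-119599266, plus strand): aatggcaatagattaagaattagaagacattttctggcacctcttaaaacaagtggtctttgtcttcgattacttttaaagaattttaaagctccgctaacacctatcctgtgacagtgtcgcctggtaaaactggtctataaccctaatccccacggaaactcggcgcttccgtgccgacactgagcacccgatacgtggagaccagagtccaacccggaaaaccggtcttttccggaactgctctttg
Map3k1 (chr13:111945553-111945802, minus strand): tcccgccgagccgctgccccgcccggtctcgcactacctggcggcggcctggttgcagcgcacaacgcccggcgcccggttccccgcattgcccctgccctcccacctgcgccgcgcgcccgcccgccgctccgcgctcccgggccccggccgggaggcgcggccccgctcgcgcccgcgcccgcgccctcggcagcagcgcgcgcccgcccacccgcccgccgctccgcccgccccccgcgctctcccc
Also searched on both strands was TGACG, the half-site of the cyclic AMP response element. A TATA box was searched as TATAAA. None of the 5 windows held either, and they occur in 14.5% and 12.8% of the 54652 windows of 250 bases before coding and long non-coding genes. GTTGCC occurred in 1 of the 5 windows, that of 4933413L06Rik at position -172 from the start (reverse strand), and in 10.3% of all windows. The share of G and C ranged from 37.2% before 4930435F18Rik to 85.6% before Map3k1. The matches are a description of these letters and show nothing of binding.

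The largest falls were those of a pair of long non-coding RNAs. 4933413L06Rik (chromosome 13, 117843300 to 117856547) stood at 11.1, 10.3 and 9.68 RPM in WT and at 0.198, 0.199 and 0.171 RPM in Strep2. All Strep2 libraries lay far below all WT libraries (log2 -5.19 ± 0.12, SE; limma adjusted p = 1.36e-11). 4930435F18Rik (116938629 to 116974714) stood at 5.20, 5.91 and 5.67 RPM in WT and at 0.122, 0.0303 and 0.0227 RPM in Strep2. It fell (log2 -5.23 ± 0.22, SE; limma adjusted p = 1.73e-08). The authors' deposited table, from the other quantification, gave 4930435F18Rik a log2 fold change of only -0.64 and 4933413L06Rik one of -5.98. No function of either RNA is used here.

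Ccl28 (120085355 to 120115895) encodes a chemokine of mucosal surfaces that attracts lymphocytes through the receptors CCR3 and CCR10. It stood at 12.1, 11.3 and 9.40 RPM in WT and at 1.297, 1.164 and 1.297 RPM in Strep2. Ccl28 fell to 0.122 of its WT level without overlap of the groups (log2 -3.04 ± 0.13, SE; limma adjusted p = 2.28e-08). Of the 7 tested genes in a list of 18 chemokines and receptors, Ccl28 was the only member called, and each of the others, Ccl5, Ccl22, Ccl27b and Ccl25 among them, had overlapping groups. The list's median log2 fold change was -0.13, beside 0.03 over all tested genes, of which 0.1% were called. With so small a share, uncalled members show nothing about a list of this size, here or in the lists below.

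4833420G17Rik, a coding gene at 119599267 to 119623229, stood at 13.3, 13.2 and 13.7 RPM in WT and at 2.62, 2.04 and 2.89 RPM in Strep2. It fell (log2 -2.40 ± 0.13, SE; limma adjusted p = 3.47e-07). Its neighbour Tmem267, which encodes a transmembrane protein, stood at 275, 252 and 289.9 RPM in WT and at 185, 183 and 206 RPM in Strep2. Tmem267 fell by less (log2 fold change -0.53 ± 0.08, SE; limma adjusted p = 0.0242). Mtrex, the RNA helicase that delivers nuclear transcripts to the exosome for decay, stood at 185, 183 and 172 RPM in WT and at 130.2, 131 and 119 RPM in Strep2. Mtrex fell (log2 -0.53 ± 0.08, SE; limma adjusted p = 0.0132), and in these 3 genes too no Strep2 library reached the lowest WT library. Under 15 alternative settings Tmem267 was called in 7 and Mtrex in 8. Of 22 tested members of the nuclear exosome and its adaptors, Mtrex alone was called, beside 0.1% of all tested genes. Their median log2 fold change was 0.06, and Rbm7, an adaptor of Mtrex, was at 57.0 to 67.2 RPM in WT and 67.2 to 75.4 in Strep2 (limma adjusted p = 0.514).

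The other 2 genes of the stretch rose. Map3k1 (111882962 to 111945552), a kinase at the head of the JNK and ERK cascades, stood at 4.02, 3.46 and 3.27 RPM in WT and at 10.6, 14.7 and 9.93 RPM in Strep2. The lowest Strep2 library exceeded the highest WT library by far, with a 3.14-fold rise (log2 1.65 ± 0.15, SE; limma adjusted p = 9.8e-05). Of 34 tested members of MAP kinase cascades Map3k1 was the only one called, beside 0.1% of all tested genes. Map4k4, Mapk3 and Map3k2 had an unadjusted limma p of 0.0581, 0.0725 and 0.0904, and the list median was -0.01. Hmgcs1, which makes HMG-CoA for cholesterol synthesis, stood at 38.0, 37.9 and 34.2 RPM in WT and at 57.8, 54.3 and 54.0 RPM in Strep2. Hmgcs1 rose 1.49-fold without overlap of the groups (log2 0.57 ± 0.08, SE; limma adjusted p = 0.00825). The remaining 25 of 26 tested cholesterol synthesis genes were not called, and the list's median was 0.00. Over all tested genes 0.1% were called. Without overlap of the groups 6 of the 26 were higher and 0 lower, beside 11.3% and 4.71% of all tested genes. At an unadjusted limma p under 0.05 were 2 higher and 0 lower. Nnt, a mitochondrial transhydrogenase gene of chromosome 13, is split over a pair of Ensembl entries. The entry just outside the threshold, the first of all uncalled genes, has no position in the annotation and was at 41.0, 36.8 and 41.9 RPM in WT and 22.5, 23.3 and 31.2 RPM in Strep2 (limma adjusted p = 0.0613).

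**Figure D2:**
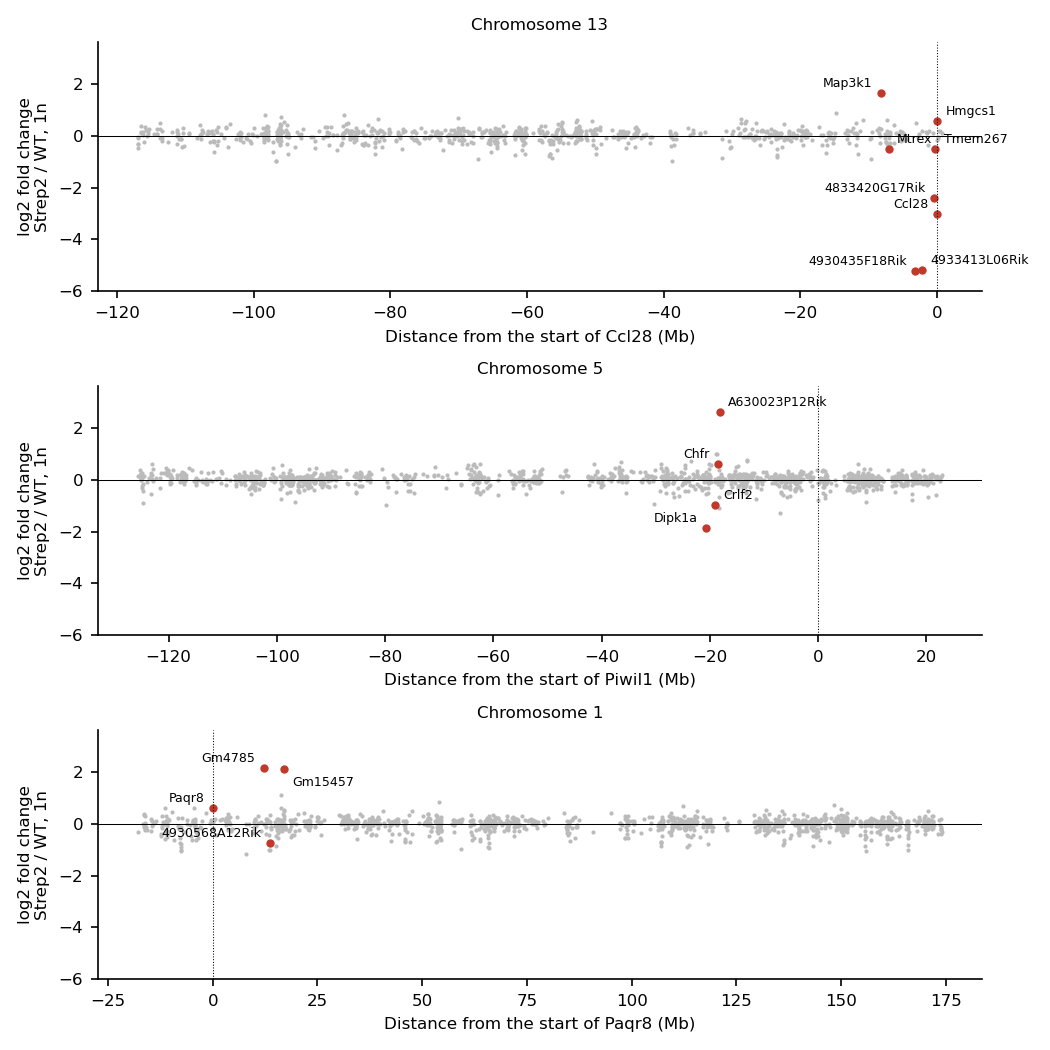
Log2 fold change of Strep2 over WT in 1n cells for every tested gene of chromosomes 13, 5 and 1, against the distance in Mb from the start of Ccl28, Piwil1 or Paqr8, with called genes in red. Called genes crowd at 1 end of chromosome 13, at 18.16 to 20.73 Mb from Piwil1 on chromosome 5 and in the first part of chromosome 1.

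On chromosome 5, which also carries Piwil1, the called genes lay between 108053220 and 110684763, at 18.16 to 20.73 Mb from the start of Piwil1. Dipk1a, a member of a family of kinase-like membrane proteins, stood at 3.94, 4.77 and 4.21 RPM in WT and at 1.27, 1.14 and 0.978 RPM in Strep2. Dipk1a fell (log2 -1.86 ± 0.14, SE; limma adjusted p = 1.65e-05). Crlf2, a receptor subunit for the cytokine TSLP, stood at 17.7, 22.6 and 17.0 RPM in WT and at 9.69, 8.46 and 11.0 RPM in Strep2. Crlf2 fell to 0.506 of WT (log2 -0.98 ± 0.12, SE; limma adjusted p = 0.00422). The other 10 tested genes of its receptor and JAK-STAT list were not called, where 0.1% of all tested genes were.

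Chfr, a ubiquitin ligase of the checkpoint at mitotic entry, stood at 40.4, 37.8 and 40.6 RPM in WT and at 58.6, 58.1 and 67.6 RPM in Strep2. It rose 1.53-fold (log2 0.61 ± 0.09, SE; limma adjusted p = 0.0138) and was called in 8 of 15 alternative settings. Chfr was the only called gene of 16 tested checkpoint and centrosome genes, beside 0.1% of all tested genes. The long non-coding RNA A630023P12Rik was listed at 0, 0 and 0.0173 RPM in WT and stood at 0.593, 0.606 and 0.455 RPM in Strep2 (limma adjusted p = 0.00083), so its size rests on the pseudocount. A630023P12Rik passed the filter on low values only through the Strep2 libraries. Between the outermost of the chromosome 5 genes, which set this stretch themselves, 40 genes were tested and 10% called, beside 0.286% of the whole chromosome. Within 5 Mb of Piwil1 0 of 106 tested genes were called in limma and 8.49% had an unadjusted p under 0.05, shares near those over all genes (0.1% and 9.04%).

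The 4 genes of chromosome 1 lay further apart, over 17.03 Mb from 20960452 to 37993217. Paqr8, a membrane progestin receptor, stood at 38.6, 37.3 and 37.6 RPM in WT and at 53.9, 56.1 and 64.3 RPM in Strep2. It rose 1.51-fold (log2 0.59 ± 0.09, SE; limma adjusted p = 0.0143). The long non-coding RNA 4930568A12Rik fell from 10.5, 10.1 and 10.6 RPM to 6.373, 6.399 and 5.868 RPM (log2 -0.75 ± 0.11, SE; limma adjusted p = 0.0131). The pseudogene Gm4785 stood at 0.364 to 0.379 RPM in Strep2 against at most 0.00888 RPM in WT, and the long non-coding RNA Gm15457 at 0.511 to 0.876 against 0.0291 to 0.108 RPM. Under 15 alternative settings Paqr8 was called in 8 and 4930568A12Rik in 9. Gm4785 and Gm15457 are low transcripts whose groups stood apart, with limma adjusted p of 0.00504 and 0.0138. Both passed the filter on low values only through the Strep2 libraries, so the gap and the p depend on the group where they are high.

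Tmed6 and Gm7868, like Paqr8, had no other called gene within 5 Mb. Tmed6 on chromosome 8 (107788108 to 107792297), a p24 protein that helps to sort cargo between endoplasmic reticulum and Golgi, stood at 8.34, 7.64 and 5.94 RPM in WT and at 12.8, 14.6 and 16.1 RPM in Strep2. Tmed6 rose 1.96-fold without overlap (log2 0.97 ± 0.12, SE; limma adjusted p = 0.00422). Of 27 tested p24 and cargo export genes it was the only one called, and their median log2 fold change was 0.09. At an unadjusted limma p under 0.05 were 5 of the 27 higher, Tmed6 among them, and 1 lower, and 9 were higher and 1 lower without overlap of the groups. Over all tested genes 9.04% had an unadjusted p under 0.05, and 11.3% were higher and 4.71% lower without overlap. Sec24b, a cargo adaptor of the COPII coat, was at 281.6, 239 and 255 RPM in WT and 309, 317 and 288 RPM in Strep2 (limma adjusted p = 0.438). Sar1b, the GTPase that starts that coat, was at 3.69, 4.07 and 3.91 against 4.73, 5.02 and 5.12 RPM (limma adjusted p = 0.469). Tmed8 was the lower member, at 15.1, 15.5 and 15.5 RPM in WT and 12.4, 10.2 and 11.1 RPM in Strep2 (limma adjusted p = 0.253). None of the 144 other genes tested within 5 Mb of Tmed6 was called in limma, beside 0.1% of all genes.

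The pseudogene Gm7868 on chromosome 12 stood at 1.86, 3.31 and 3.22 RPM in WT and at 7.09, 7.16 and 9.11 RPM in Strep2 (log2 1.46 ± 0.20, SE; limma adjusted p = 0.00881). The long non-coding RNA Gm40603 on chromosome 10 stood at 0.884, 0.857 and 1.21 RPM in WT and at 0.319, 0.347 and 0.337 RPM in Strep2 (limma adjusted p = 0.0362) and was called in only 2 of 14 alternative settings. The Y pseudogenes Gm20868 and Gm21806 had means of 0.519 ± 0.251 and 0.936 ± 0.0914 RPM in WT against 0.0323 ± 0.00600 and 0.312 ± 0.0675 RPM in Strep2 (SD, n = 3 libraries). Their limma adjusted p were 0.0132 and 0.0138. Y pseudogenes belong to families of near-identical copies that share reads, as pseudogenes share reads with their parent genes, so these values are uncertain, and Gm20868 was called in 5 of 11 alternative settings.

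The 4n spermatocyte libraries of Strep2 and WT, which the 1n comparison did not use, gave the same genes a separate measurement in the same lines. The labels tie no library to an animal, so 1n and 4n cells may come from the same animals. In 4n cells 28 of 18463 tested genes were called (0.152%). Of the 21 genes 17 were tested in 4n cells, 15 went the same way and 11 were called, all 11 in the direction seen in 1n cells. They were 4933413L06Rik, Ccl28, 4833420G17Rik, Mtrex and Tmem267 on chromosome 13, Dipk1a and A630023P12Rik on chromosome 5, Paqr8 and 4930568A12Rik on chromosome 1, Tmed6 and Gm7868. The 4n count of all called genes went down to between 9 and 14 without any 1 of the 6 WT and Strep2 libraries, and to 16 without further scaling.

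Tmed6 stood at 6.04, 5.69 and 5.80 RPM in 4n WT and at 10.1, 14.6 and 10.8 RPM in 4n Strep2, and rose there too (log2 0.89 ± 0.13, SE; limma adjusted p = 0.0397). Map3k1 stood at 2.07, 1.72 and 1.98 RPM in 4n WT and at 3.07, 3.46 and 3.29 RPM in 4n Strep2, without overlap but without a call (log2 0.64 ± 0.13, SE; limma adjusted p = 0.102). Hmgcs1 overlapped in 4n cells, at 15.4 to 18.8 RPM in WT and 15.9 to 19.2 RPM in Strep2 (limma adjusted p = 0.789).

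The Strep2 effect itself differed between 1n and 4n cells in 10 of 22824 genes (0.0438%), 7 of them among the 21. Ccl28 stood at 14.7, 12.4 and 10.1 RPM in 4n WT and at 0.0762, 0.170 and 0.183 RPM in 4n Strep2. Ccl28 therefore fell further in 4n cells, and the difference of its log2 fold changes, 1n minus 4n, was 2.79 ± 0.27 (SE; limma adjusted p = 4.28e-05). A630023P12Rik stood at 4.25, 5.15 and 4.31 RPM in 4n Strep2 and at most 0.0205 RPM in 4n WT, while 1n Strep2 stood at 0.455 to 0.606 RPM. With WT near 0 in both populations its difference of -2.84 ± 0.26 (SE; limma adjusted p = 3.7e-05) rests on the Strep2 levels and the pseudocount and does not compare sizes of a rise. 4833420G17Rik fell less in 4n cells, from 27.9 to 32.5 RPM in WT to 11.6 to 12.6 RPM in Strep2 (difference -0.99 ± 0.16, SE; limma adjusted p = 0.0216). The WT and Strep2 libraries of 4n cells belong to the library series XI-110 and those of 1n cells to XI-112, so population and library series cannot be told apart in this difference. Without 1n Strep2 replicate 1 or 2 the count of 10 went to 6.

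**Figure D3:**
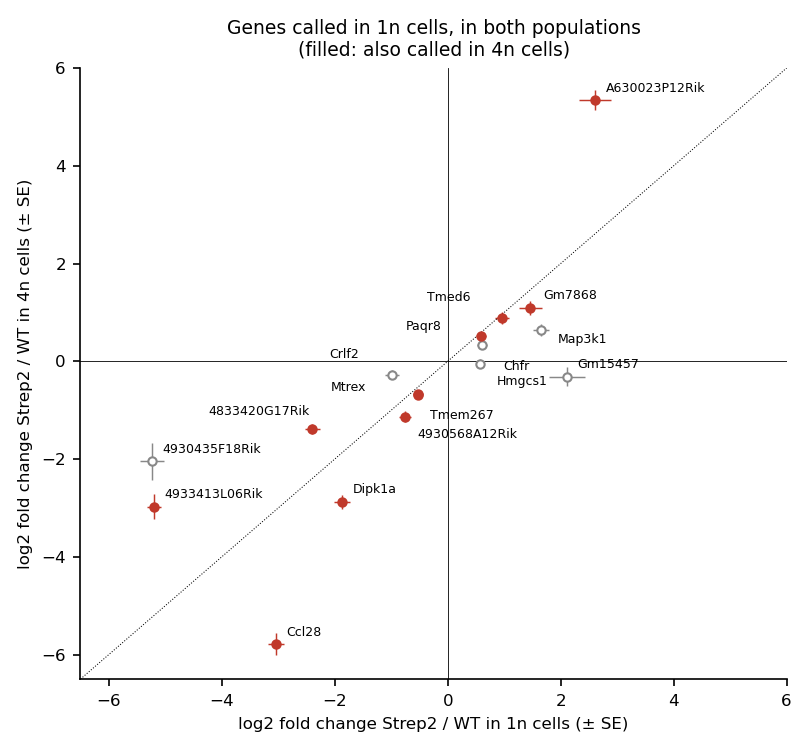
Log2 fold change of Strep2 over WT with its SE in 1n cells (x) and 4n cells (y) for the 17 called genes tested in both, filled red where also called in 4n cells. Tmed6 and Paqr8 lie near the dotted line of equal change, while Ccl28 (-3.04 in 1n, -5.79 in 4n) and A630023P12Rik (2.61 and 5.35) lie beyond it in 4n cells.

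The other tagged line, Strep1, was set beside Strep2 in 1n cells. Both comparisons use the same WT libraries, of the library series XI-112, and the 1n Strep1 libraries belong to XI-110. Line and library series therefore cannot be told apart in any Strep1 value below, and the counts of called genes do not compare the effects of the lines. In 1n Strep1 266 of 20988 genes were called against WT (1.27%), and 3 of the 21 genes were among them. The 266 went to 175 without WT replicate 1 and to 156, 163 and 168 on dropping Strep1 replicate 1, 2 or 3. Tmed6 stood at 12.6, 12.8 and 12.1 RPM in Strep1, Gm40603 at 0.286, 0.448 and 0.409 RPM and Ccl28 at 8.00, 7.40 and 5.96 RPM. Their log2 fold changes in Strep1 were 0.76, -1.19 and -0.63, with limma adjusted p of 0.00388, 0.0133 and 0.0354. Map3k1, at 4.10, 3.57 and 4.27 RPM in Strep1, and 4933413L06Rik, at 9.53, 11.1 and 9.80 RPM, overlapped the WT libraries and were not called (limma adjusted p = 0.733 and 0.891).

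The authors' deposited table for the same comparison, which by its name rests on Salmon, called 115 of 21463 genes at an adjusted p under 0.05 (0.536%), 63 higher and 52 lower. It shared 18 of its calls with the 21 genes, which is 18 of 21 on one side and 18 of 115 on the other, all with the same sign. Of the 21, Gm4785 and Gm20868 had no values in the authors' table, while Gm15457 was not called there (adjusted p = 0.149 in that table). Of the 115, 106 were tested in limma. Gm7868 had a log2 fold change of 7.38 in the authors' deposited table against 1.46 here. Gm21806 had -4.92 there against -1.36 here. Of the genes called only in the authors' deposited table the smallest adjusted p belonged to the second entry of Nnt (log2 fold change -2.44), the Y genes Gm20843, Gm21440 and Gm20817 and the pseudogene Gm13961. Gm21440 had a deposited log2 fold change of only -0.00072. Its deposited signal was 406, 0 and 325 in WT and 0 in each Strep2 library. That Nnt entry stood at 15.4 ± 2.80 RPM in WT and 11.3 ± 1.68 RPM in Strep2 (SD, n = 3 libraries), and was not called in limma (adjusted p = 0.371). The authors' table called 15 genes on chromosome 13, 14 on Y, 12 on X, 11 on chromosome 1 and 10 on chromosome 5. On X 11 of the 12 were higher, some with a deposited log2 fold change near 0, such as Gm7950 (0.00076), H2al1c (0.00073) and Ott (0.0029). H2al1c and Ott are marked there as sharing their sequence with other genes. Its tested genes were not counted by chromosome, so only the share of 0.536% over all its genes stands beside these counts.

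**Figure D4:**
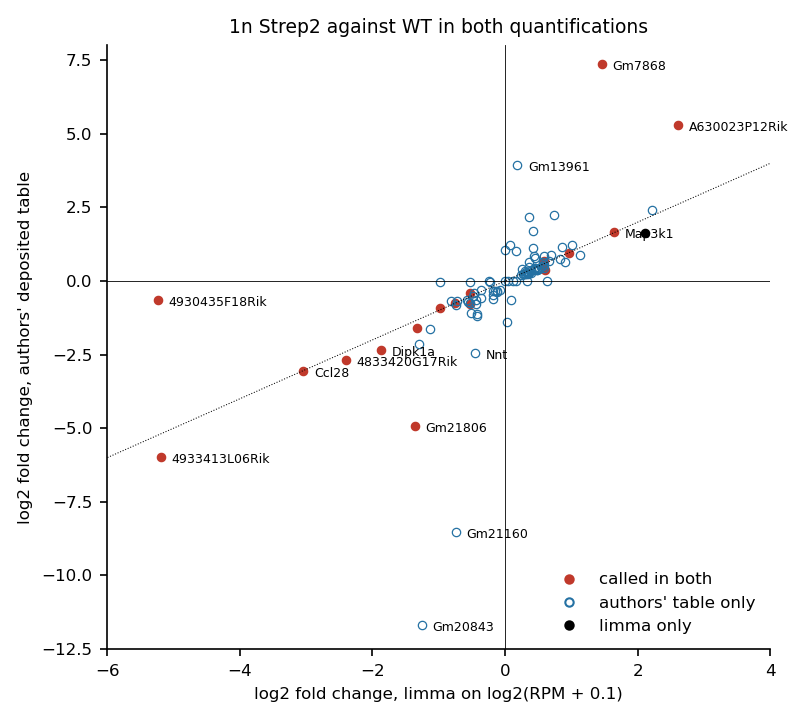
Log2 fold change of Strep2 over WT in 1n cells from limma on log2(RPM + 0.1) (x) and in the authors' deposited table (y). Shown are genes called in either that have a value in both. They are red where called in both, open blue where called in the authors' table only and black where called in limma only. Ccl28 lies on the dotted line of equality, while 4930435F18Rik (-5.23 against -0.64) and Gm7868 (1.46 against 7.38) lie far from it.

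On the opposite strand 9 of 9227 genes were called (0.0975%), and 6 of the 9 lie on chromosome 13, which holds 3.92% of the antisense genes tested. Of the 6, 3 overlap a called gene of the other strand and moved the same way, Gm48342 with Hmgcs1, Gm9752 with 4833420G17Rik and Gm48265 with Tmem267, so their antisense reads cannot be told apart from sense reads of those genes. The antisense strand of Zfp131, a zinc finger gene near Hmgcs1, had 0.792 ± 0.296 RPM in WT and 0.0487 ± 0.00701 in Strep2 (SD, n = 3 libraries; limma adjusted p = 0.000207). The antisense strand of Parp8, near 4930435F18Rik, fell from 0.434 ± 0.0253 to 0.0566 ± 0.0345 RPM (SD, n = 3 libraries; limma adjusted p = 0.0215). On chromosome 1 the antisense strands of Gm37429 and Npbwr1, a neuropeptide receptor gene, were listed at 0 in all WT libraries and had means of 0.635 ± 0.0894 and 0.562 ± 0.162 RPM in Strep2 (SD, n = 3 libraries; limma adjusted p = 0.000207 and 0.000452). The count of 9 went to 4 without WT replicate 1 or 3, to 14 without WT replicate 2, to 2 without Strep2 replicate 1 or 2 and to 3 without Strep2 replicate 3. Of the 21 called genes 8 had a testable antisense strand and 0 were called there, with Ccl28 nearest (log2 -1.52; limma adjusted p = 0.0501).

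Genes that make a spermatid were not called in limma, while the authors' deposited table called 1 of the round spermatid and acrosome list, Tssk4, higher. Among 36 tested members of that list 0 were called in limma, with 9 at an unadjusted p under 0.05, all 9 higher in Strep2, and a median log2 fold change of 0.14 beside 0.03 over all genes. Over all genes 0.1% were called and 9.04% had an unadjusted p under 0.05, 1127 higher and 771 lower. Tssk4, a kinase of late spermatids, was at 119, 111 and 109 RPM in WT and 143, 145 and 133 RPM in Strep2 (limma adjusted p = 0.303). The authors' deposited table gave Tssk4 a log2 fold change of 0.26 and an adjusted p of 0.024. It also called Ccin, Adam29, Spag6 and Hyal5, genes with roles in sperm that are in none of the lists and were picked after their values were seen, with log2 fold changes of 0.33, 0.28, 0.22 and 0.26. Acrv1, an acrosomal protein, was at 254, 216 and 217 against 280.5, 277 and 259 RPM. Of 38 tested genes for elongation and the tail of the sperm 0 were called (3 at an unadjusted p under 0.05, all higher, median 0.03), and of 36 meiotic prophase genes 0 (2 higher and 1 lower at an unadjusted p under 0.05, median 0.02).

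Of the 32 tested genes of the piRNA pathway, in which MIWI acts, 0 were called in limma, with 3 higher and 1 lower at an unadjusted p under 0.05 and a median of 0.04. Over all tested genes 0.1% were called, 9.04% had an unadjusted p under 0.05 and the median was 0.03. Gtsf1, which helps PIWI proteins to cleave their targets, was at 166, 143 and 145 RPM in WT and 179, 189 and 182 RPM in Strep2 (limma adjusted p = 0.388). Mael, a factor of piRNA biogenesis, was at 851, 720.5 and 798 RPM in WT and 879, 929.8 and 943 RPM in Strep2 (limma adjusted p = 0.48). Among stress genes (21 heat shock and immediate early genes, 11 p53 targets and 6 interferon genes) 0 were called, and Bbc3, a p53 target, was the only 1 of these with an unadjusted limma p under 0.05, at 5.10, 5.73 and 5.06 RPM in WT and 4.30, 4.03 and 3.79 in Strep2.

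Markers of somatic testis cells were low. Beside the lists below, 0.1% of all tested genes were called in limma. An unadjusted limma p under 0.05 was found for 9.04%, 1127 higher and 771 lower, and the all-gene median was 0.03. Sertoli genes, 14 of 23 tested, had a median log2 fold change of -0.30 with 0 called, and 3 lower and 1 higher at an unadjusted limma p under 0.05. Their summed level was 157 to 163 RPM in WT and 166 to 174 RPM in Strep2, of which Tjp1 made 116 to 141 RPM, and without Tjp1 34.8 to 47.0 and 31.1 to 35.6 RPM. The defining Sertoli gene Sox9 stood at 0.262 to 0.296 RPM in WT and 0.0569 to 0.264 RPM in Strep2, and no member was at 0 in all 6 libraries. Clu, a secreted chaperone of Sertoli cells, was at 6.14, 6.89 and 4.78 RPM in WT and 3.41, 3.45 and 3.18 in Strep2 (limma adjusted p = 0.125). The authors' deposited table called Clu lower, with a log2 fold change of -0.68 and an adjusted p of 0.0399, the only Sertoli gene it called. Leydig, peritubular with endothelial, and macrophage with blood lists had medians of -0.26, -0.08 and -0.20, each with 0 called in limma and 1 lower at an unadjusted p under 0.05. Their sums overlapped between the groups, at 50.0 to 68.5, 24.1 to 31.5 and 10.5 to 14.0 RPM in WT against 59.9 to 64.2, 22.9 to 25.9 and 10.4 to 11.9 RPM in Strep2. Scarb1 made 39.3 to 51.5 RPM of the Leydig sum, Vwf 10.3 to 14.9 and Adgre1 3.42 to 4.03 RPM of the others. Without these the sums were 10.7 to 17.0, 13.6 to 16.6 and 6.67 to 10.1 RPM in WT. In Strep2 they were 11.7 to 13.8, 12.6 to 14.9 and 6.41 to 7.98 RPM, again with overlap. Spermatogonial genes had 0 called and 2 higher at an unadjusted limma p under 0.05. They summed to 558 to 666 RPM in WT and 691 to 746 RPM in Strep2, without overlap, and apart from Dmrtb1, which makes up most of this, to 23.6 to 32.1 RPM in WT and 25.0 to 28.6 RPM in Strep2. The part of these cells in the results above was not tested, and fewer cells of a type and less RNA per cell cannot be told apart in such libraries.

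Of 3010 repeat subfamilies 0 were called in limma (0%), but 635 had an unadjusted p under 0.05 (21.1%), 624 of them lower and 11 higher in Strep2. The median log2 fold change over repeats was -0.22, and 514 had every Strep2 library below every WT library (17.1%). The smallest p belonged to LTR33A_v, an ERVL element, at 6.67, 6.49 and 7.54 RPM in WT and 4.73, 3.90 and 4.08 RPM in Strep2, without overlap (log2 -0.71 ± 0.12, SE; limma adjusted p = 0.178). In 1n Strep1, of library series XI-110, LTR33A_v stood at 5.05, 4.78 and 5.54 RPM, also below every WT library. The repeat with the next smallest p, the simple repeat (TTCTG)n, had means of 1.92 RPM in WT, 0.868 in Strep2 and 1.13 in Strep1. In these repeats the lower level was therefore not particular to Strep2, and Strep1 was not counted over all repeats. Without WT replicate 3 1 repeat was called. Summed LINE RPM stood at 18073, 16085 and 22965 in WT and 18306, 15185 and 13313 in Strep2, with overlapping groups (ratio 0.819, exact two-sided permutation p = 0.3). Summed LTR RPM stood at 21218, 20985 and 24167 in WT and 20970.0, 18175 and 17604 in Strep2, which did not overlap by a narrow margin (ratio 0.855, exact permutation p = 0.1, the smallest that 3 against 3 libraries can give, and 0.2 after trimmed-mean scaling). Summed simple repeats stood at 13433, 14911 and 14670 RPM in WT and 13152, 12027 and 12210.2 RPM in Strep2, without overlap before or after scaling (ratio 0.869, exact permutation p = 0.1; scaled ratio 0.856, p = 0.1). Protein-coding genes together took 674281 ± 21324 RPM in WT and 718524 ± 19937 RPM in Strep2 (SD, n = 3 libraries; ratio 1.07, exact permutation p = 0.1). All genes together took 689696 to 733138 RPM in WT, 740749 to 775993 RPM in Strep2 and 749381 to 794296 RPM in 1n Strep1. The higher share of genes was therefore not particular to Strep2. All antisense reads together had a ratio of 0.899 (exact permutation p = 0.1). The part of this shift in the repeat values was not tested.

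**Figure D5:**
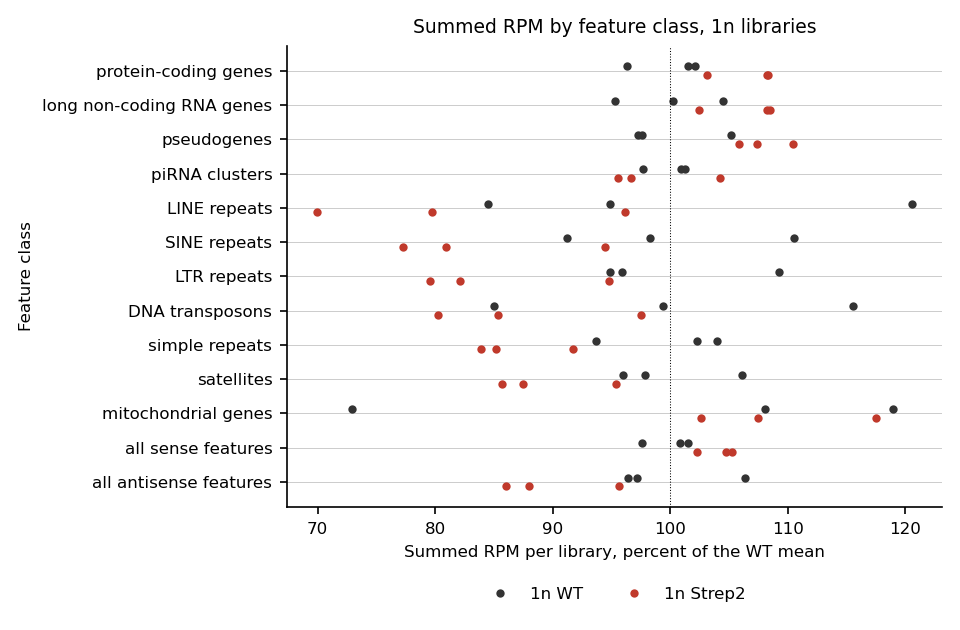
Summed RPM of each feature class per 1n library, as percent of the WT mean, with WT libraries in black and Strep2 in red. Coding genes of Strep2 lie above the WT libraries, LINE repeats overlap and piRNA clusters lie around 100 percent.

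Of 394 pachytene piRNA clusters, the sources of the piRNAs that MIWI carries, 0 were called in limma (0%), with 59 at an unadjusted p under 0.05 (15%), 14 higher and 45 lower, and a median of -0.08. All 406 clusters listed, tested or not, summed to 6036, 5842 and 6056 RPM in WT and 5713, 5778 and 6230 RPM in Strep2, with overlap (ratio 0.988, exact permutation p = 0.8). The cluster with the smallest p, on chromosome 7, stood at 9.08, 8.31 and 8.73 RPM in WT and at 10.4, 12.6 and 14.0 RPM in Strep2 (limma adjusted p = 0.219). The lower cluster with the smallest p, named for Ppp1r12b on chromosome 1, stood at 24.2, 25.5 and 25.4 RPM in WT and at 19.8, 17.8 and 20.1 RPM in Strep2, also without overlap.

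The X chromosome, which is silenced in spermatocytes and partly active in spermatids, had 0 called genes of 745 tested in limma, beside 0.1% of all genes. An unadjusted p under 0.05 was reached by 137 of them (18.4%), 128 higher and 9 lower in Strep2, beside 9.04% of all genes, of which 1127 were higher and 771 lower. The median log2 fold change on X was 0.13, beside 0.03 over all genes. It was not particular to X, as the median of the 361 tested Y genes was 0.12. At an unadjusted limma p under 0.05 were 21 Y genes higher and 21 lower (11.6%). Without overlap of the groups 60 Y genes were higher and 32 lower, beside 11.3% and 4.71% of all genes. Tgif2lx2, an X-linked homeobox gene, stood at 21.1 ± 2.29 RPM in WT and 29.3 ± 1.07 RPM in Strep2 (SD, n = 3 libraries; limma adjusted p = 0.115). Efhc2, a protein of ciliary microtubules, stood at 36.3 ± 1.80 and 46.8 ± 0.376 RPM (SD, n = 3 libraries; limma adjusted p = 0.172). These 2 genes were picked after their values were seen, and the authors' deposited table called both higher (adjusted p = 0.00359 and 0.0109).

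MIWI-bound small RNA, sequenced in 5 libraries from Strep1 testes, gave few sense reads to the called genes. Paqr8 had the most, at 9.12 to 12.8 RPM (median 10.9), while Ccl28, Map3k1 and Tmed6 had medians of 0.162, 0.498 and 0 RPM. These libraries come from whole testes of the other line and give no comparison with WT.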

How the data were processed

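Long RNA of sorted 1n and 4n cells was read as RPM on the sense and antisense strands; these RPM were made by the authors and deposited with no statement of the library total, and the table's name gives featureCounts. The authors' deposited Salmon table holds normalized signal per gene, log2 fold changes and p-values, per the file headers. The submitters' processing notes name cutadapt, Bowtie, STAR, featureCounts, Salmon 1.3.0, DESeq, DESeq2 and GRCm39, with no roles. Within 0.01 reads 39.8% to 44.3% of non-zero values were whole, so counts were not recovered and no count model was used.

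Features with at least 0.3 RPM in 3 of 9 libraries were scaled by trimmed means (30% of ratios, 5% of levels; factors 0.959 to 1.02) and fitted as log2(RPM + 0.1) with limma 3.58.1 (trend) in R 4.3.3, with Strep1 in the fit. Benjamini-Hochberg adjustment ran over each feature type, with 0.05 as threshold. Sums used an exact permutation test. The test was checked on simulated data. Figures used Python 3.11.15 and matplotlib 3.10.9. Genes named were all called genes, at most 4 members of each of 21 lists by p, defining cell markers and the highest member of a marker list (both outside the naming rule), and the 5 first genes called by the authors alone. The members and lists were chosen with earlier results of these data known. Of the small RNA values, 2 columns of no sample were not used. Depth limits the low transcripts, and counting intervals were not computed from RPM.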

Additional observations from a re-analysis of the deposited data

Results flagged for a closer look

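In 7 of the 21 genes the Strep2 effect differed between 1n and 4n cells by the limma test of that difference (adjusted p under 0.05), given here as the log2 fold change in 1n minus that in 4n cells. It was 2.79 for Ccl28, which fell further in 4n cells. It was -2.84 for A630023P12Rik, whose WT level is near 0 in both populations, so the value rests on the Strep2 levels and the pseudocount. For 4933413L06Rik it was -2.13 and for 4930435F18Rik -3.08. These stood at means of 0.744 and 0.366 RPM in 4n WT cells, where the pseudocount of 0.1 RPM allows no log2 fold change below -3.08 and -2.22, so the differences do not show a weaker fall in 4n cells. It was -0.99 for 4833420G17Rik, which fell more in 1n cells. For Gm4785 it was 2.26 and for Gm15457 2.40, both of which were higher in Strep2 in 1n cells and had overlapping groups in 4n cells. Gm4785 was near 0 in 4n cells, at means of 0.0171 RPM in WT and 0.00695 in Strep2, below the filter. Its difference therefore does not show that an effect was absent there. Gm15457 had 4n means of 0.885 RPM in WT and 0.734 in Strep2. Population and library series cannot be told apart in these differences.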

How the results depend on the processing

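The count of 21 genes was 13 with no filter on low values, and between 10 and 21 when 1 library was left out. It was 20 and 19 with pseudocounts of 1 and 0.01 RPM, 16 at 1 RPM, 21 without scaling and 19 in the 6 libraries alone. The antisense count of 9 was 5 with no filter, 3 at 1 RPM and 2 to 14 with 1 library left out. Repeats ranged from 0 to 1 and the difference between populations from 6 to 11 with 1 library left out. The 4n count of 28 was 16 without further scaling and 9 to 14 with 1 library left out, and the Strep1 count of 266 was 156 to 331. With the replicate number as a block the counts were 17 genes, 5 antisense genes and 1 cluster. Same-numbered libraries did not deviate together (correlations 0.0307, -0.0175 and 0.0582). Libraries of different numbers gave -0.119 to 0.113, so no pairing by number was seen, but this check cannot exclude one. On the authors' signal, an alternative chosen after seeing the data, 25 genes were called. No direction reversed. 4833420G17Rik, 4933413L06Rik, Ccl28, Dipk1a, Map3k1 and Tmed6 were called in 15 of 15 alternatives, and A630023P12Rik and Gm4785 wherever tested (11 and 10). The last pair passed the main filter only through the Strep2 libraries, so those calls depend on the group where they are high. 4930435F18Rik and Crlf2 were called in 14 of 15, Gm7868 in 13, Hmgcs1 in 10, 4930568A12Rik and Gm21806 in 9, Chfr, Mtrex and Paqr8 in 8 and Tmem267 in 7. Gm15457 was called in 7 of 11, Gm20868 in 5 of 11 and Gm40603 in 2 of 14. The causes were not tested.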

Other observations

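The mitochondrial leucine tRNA of the TAA anticodon class stood at 1.15, 0.860 and 0.982 RPM in 1n WT and at 0.368, 0.497 and 0.464 RPM in 1n Strep2, without overlap (limma p adjusted over 6 tRNA features = 0.000756). The gene entry at the same place, mt-Tl1, was not called over all genes (adjusted p = 0.0959).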
